A study of Mus musculus with 28 samples.

Results

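Mesenchymal stromal cells (MSCs) sorted from the bone of Flt3 ITD/ITD and Flt3+/+ mice were compared, using 10 of the 28 RNA-seq libraries of the series, 5 of each genotype. The libraries were chosen by their labels for cell population and genotype. Flt3 ITD/ITD mice are C57 BL6 animals homozygous for a knock-in of an internal tandem duplication (ITD) into Flt3, and the controls were Flt3+/+ C57 BL6 mice, all aged 8 to 10 wk. No further allele, transgene or agent is given for either group. The knock-in is carried by every cell of the mouse, so that the stroma was exposed both to its own alleles and to blood cells with the mutation, and these cannot be told apart here. MSCs were sorted as CD45-Ter119-CD31-CD166-Sca1+ cells from collagenase-digested bone fragments, and each library was made from 100 cells of 1 mouse after amplification of the cDNA. The question was whether the marrow stroma of mice with Flt3-ITD-induced myeloproliferation differs in gene expression from that of Flt3+/+ mice. The labels and the study's text do not give the sex of these mice, and nothing in the labels says which libraries were prepared together.

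Flt3 is a receptor tyrosine kinase of early blood progenitors, and an internal tandem duplication makes it signal without its ligand, which drives an expansion of myeloid cells. MSCs of the bone marrow surround vessels and line bone, deposit collagens and proteoglycans, and give rise to bone, cartilage and fat cells. Stromal cells of the marrow are a source of Cxcl12, the chemokine that retains blood stem cells in the marrow, and of stem cell factor, encoded by Kitl. Like most cells they display peptides on MHC class I molecules, and interferon raises the expression of these molecules and of the proteasome subunits that feed them.

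The Flt3+/+ libraries held 12300624 to 33714502 counts and the Flt3 ITD/ITD libraries 10674182 to 33500685, and 14881 to 16334 genes of 25251 had a count. Flt3 ITD/ITD replicate 4 and replicate 1 stood apart from the other MSC libraries, with median rank correlations of 0.75 and 0.773 to the others, and replicate 4 lay alone at one end of the first principal component, which held 22.2% of the variance. Xist, which is transcribed from the inactive X chromosome of females, was present and Y-linked transcripts were near 0 in 3 libraries, Flt3+/+ replicates 1 and 4 and Flt3 ITD/ITD replicate 4. The other 7 libraries, 3 Flt3+/+ and 4 Flt3 ITD/ITD, had Y-linked transcripts. The same 3 libraries had the lowest summed RPKM of 16 immediate-early genes, 1984, 2220 and 2053, where the others had 3705 to 5653. RPKM is the read count divided by transcript length and by library size. The part of these differences in the results was not tested beyond the values given with and without the libraries.

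The sorted cells had the expression of stroma. Pdgfra, a receptor for platelet-derived growth factor, had a mean of 82.5 RPKM (SD 16.9, n = 5) in Flt3+/+ and of 83.6 (SD 16.6, n = 5) in Flt3 ITD/ITD libraries. Pdgfrb, the related receptor of perivascular cells, had means of 16.6 and 19.4 RPKM. Angptl1, an angiopoietin-like secreted protein, had means of 267.5 and 201.6 RPKM. The exact permutation p-values of the genotypes for these genes were 0.968, 0.397 and 0.635. The gate itself was visible in the RNA. Ly6a, which encodes Sca1, had 2755 to 3089 RPKM in Flt3+/+ and 1687 to 2982 in Flt3 ITD/ITD libraries, while Ptprc, which encodes CD45, did not exceed 0.53. Pecam1, which encodes CD31, did not exceed 1.93, both highest in Flt3 ITD/ITD replicate 5. Alcam, which encodes CD166 and which the gate excludes, reached 3.94 RPKM in Flt3 ITD/ITD replicate 1, the library with the lowest Ly6a, and at most 0.21 in the others. The most abundant transcript was Dcn, which encodes the proteoglycan decorin, with means of 23350 and 24490 RPKM. Prg4, which encodes the joint lubricant lubricin, had means of 4223 and 3734 RPKM, and Mgp, which encodes an inhibitor of calcification, 4834 and 3875. The unadjusted p-value was above 0.05 for all 3 of these genes.

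Flt3 itself was nearly absent. It had no count in any of the 5 Flt3+/+ MSC libraries, which allows up to 3 counts in each, counting error only. In Flt3 ITD/ITD MSCs it had 1, 22, 0, 0 and 8 counts in replicates 1 to 5, or at most 0.22 RPKM. In marrow mononuclear cells (MNCs) of the same genotype it had 6.91 to 14.8 RPKM. Transcripts of Flt3 therefore do not check the genotype of the MSC libraries.

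Of 13574 genes tested with the quasi-likelihood test of edgeR, 4 (0.0295%) were called between genotypes, with an adjusted p-value under 0.1 and mean RPKM at least 2-fold apart. All 4 were lower in Flt3 ITD/ITD MSCs and none was higher. At an unadjusted p-value below 0.05, 310 genes (2.28%) were higher and 265 (1.95%) lower in Flt3 ITD/ITD MSCs, in all 4.24% of the genes, where a threshold of 0.05 passes 5% of genes that do not differ. The 4 called genes fell to at most 1 count in every Flt3 ITD/ITD library. No gene had at least 20 counts in every Flt3 ITD/ITD and at most 3 in every Flt3+/+ library.

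Akr1c14 encodes an aldo-keto reductase that acts on steroid hormones and lies on chromosome 13 (GRCm38, 4049011 to 4090688). It had 7.06, 1.25, 3.67, 6.47 and 3.98 RPKM in Flt3+/+ replicates 1 to 5 and 0.01, 0, 0, 0.02 and 0 in Flt3 ITD/ITD replicates 1 to 5. Every Flt3+/+ library was thus far above every Flt3 ITD/ITD library, with 104 to 468 counts against 0 or 1 (adjusted p = 0.0426). Taking 3 counts in each Flt3 ITD/ITD library as the floor, Akr1c14 was at least 78.9-fold lower. E130308A19Rik, on chromosome 4 (59626211 to 59761439), had 3.19, 1.2, 2.07, 3.26 and 1.64 RPKM in Flt3+/+ and 0.01, 0, 0.01, 0.01 and 0.03 in Flt3 ITD/ITD replicates 1 to 5. It was at least 60.3-fold lower by the same floor (adjusted p = 0.0426). Ccdc22 encodes a subunit of a complex that sorts proteins at endosomes, and Foxp3 the transcription factor of regulatory T cells. Ccdc22 had 1.03, 2.22, 1.7, 1.71 and 2.59 RPKM in Flt3+/+ replicates 1 to 5 and was without a count in all 5 Flt3 ITD/ITD libraries, at least 30-fold lower (adjusted p = 0.0504). Foxp3 had 0.58, 1.1, 0.48, 0.34 and 0.86 RPKM in Flt3+/+ replicates 1 to 5 and likewise no count in Flt3 ITD/ITD MSCs, at least 18.2-fold lower (adjusted p = 0.0508). The genes lie on opposite strands of chromosome X, Foxp3 at 7573644 to 7595245 and Ccdc22 at 7593809 to 7605517, and share 1437 bases. The library kit is not stated to keep the strand, so that reads from the shared stretch could not be assigned by strand and their values may not be independent. Whether the deposited counts hold reads from that stretch was not tested.

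**Figure D1:**
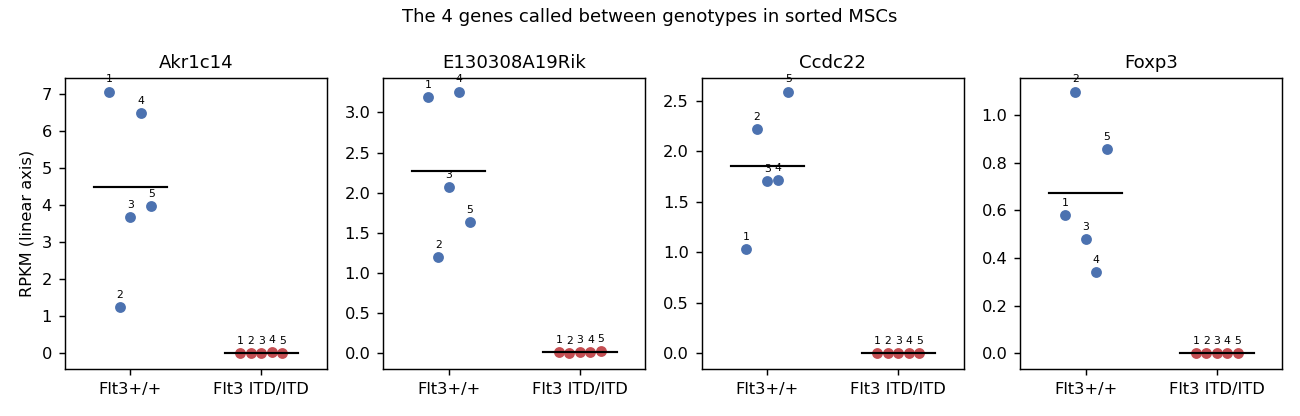
RPKM (linear axes) of the 4 called genes in each MSC library. Points are libraries numbered by replicate and horizontal lines are means of 5. The Flt3 ITD/ITD libraries lie between 0 and 0.03 RPKM for all 4 genes, below every Flt3+/+ library.

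These calls needed nearly all libraries. When 1 of the 10 was left out, the adjusted p-value of the 4 genes ranged from 0.0748 to 0.271, and only without Flt3+/+ replicate 2 were any called, Akr1c14 and E130308A19Rik. The fitted log2 fold change of Akr1c14 stayed between -9.56 and -8.7, and with the 7 libraries that had Y-linked transcripts no gene was called. All 4 were also among the genes called by DESeq2 (77 higher and 120 lower, 1.29% of 15245 genes) and by edgeR's exact test (6 higher and 14 lower, 0.147%).

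The 3 called genes other than Akr1c14 were on or off between libraries of 1 genotype in another population. In sorted endothelial cells (ECs), also 100 per library, Ccdc22 had 288, 882, 1, 246 and 0 counts in Flt3+/+ replicates 1 to 5 and 7, 1, 1, 127 and 1 in Flt3 ITD/ITD replicates 1 to 5. Foxp3 had 141, 212, 0, 51 and 0 counts in the same Flt3+/+ EC libraries, so that both genes had at most 1 count in Flt3+/+ EC replicates 3 and 5. E130308A19Rik had 66, 0, 1, 2 and 2 counts in Flt3+/+ ECs and 79, 0, 1, 29 and 1 in Flt3 ITD/ITD ECs. Akr1c14, in contrast, had at least 240 counts in each of the 10 EC libraries and at most 1 in any of the 8 MNC libraries, and its mean in ECs was 24.7 RPKM in Flt3+/+ and 33.6 in Flt3 ITD/ITD libraries.

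The effect of genotype on Akr1c14 differed between MSCs and ECs, by -9.44 on the log2 scale (SE 1.16, adjusted p = 0.00227), and Akr1c14 was the single gene of 15174 tested (0.00659%) with such a difference. It was called again when each MSC library was left out in turn, and without Flt3 ITD/ITD replicate 2 a second gene was called. Between MSCs and MNCs the genotype effect differed for 6 of 16159 genes (0.0371%), Ccdc22, Foxp3, E130308A19Rik, 2610524H06Rik, Bbs10 and Socs2. Socs2, a feedback inhibitor of cytokine signalling, had 38.9 RPKM in Flt3+/+ and 39.2 in Flt3 ITD/ITD libraries, against 1.1 and 16.3 in MNCs (difference of the log2 effects -3.67, SE 0.47, adjusted p = 0.00278). Bbs10, which encodes a chaperonin-like protein of the primary cilium, had 0.832 and 0.002 RPKM in MSCs and 0.0425 and 1.05 in MNCs. Only 3 of the 6 were called without Flt3+/+ replicate 1 or without Flt3 ITD/ITD replicate 1, 3 or 4, and 14 genes were called without Flt3 ITD/ITD replicate 5. All these comparisons share the MSC libraries.

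The RPKM values of some genes, the called genes among them, did not overlap between genotypes. In the tested genes, 48 (0.354%) had every Flt3 ITD/ITD library above every Flt3+/+ library and 76 (0.56%) had every Flt3 ITD/ITD library below. The exact permutation p-value of such a gene is 0.00794, the smallest that 5 libraries against 5 can give. With 124 genes at that value it is 0.869 when adjusted over all genes. A single gene thus could not pass by this test, whatever its values, and the test decides nothing about these genes. Where no gene differs, a share of about 0.00794 separates in 1 direction or the other. The shares found, 0.354% and 0.56%, are together close to that, so that the number of such genes shows no clear excess. The 10 in each direction with the smallest p-value and a mean of at least 1 RPKM are described. By DESeq2 all of them had an adjusted p-value below 0.1, from 2.78e-16 (E130308A19Rik) to 0.0478 (Scg3). In edgeR's quasi-likelihood test only Akr1c14, E130308A19Rik and Ccdc22 of them had one. Mean RPKM of Prdx6 and C1ra were less than 2-fold apart. The genes were picked for their values, and both tests use the same counts.

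Smad4, the shared partner of the SMAD proteins of TGF-beta and BMP signalling, had 21.7, 33.4, 31.3, 31.3 and 28.6 RPKM in Flt3+/+ replicates 1 to 5 and 10.7, 7.16, 5.21, 12.4 and 11.9 in Flt3 ITD/ITD replicates 1 to 5. The log2 fold change was -1.57 (SE 0.29), and the adjusted p-value was 0.322 in edgeR's quasi-likelihood test and 3.34e-05 by DESeq2. Npy, which encodes neuropeptide Y, had 549.8, 268.8, 941.5, 504.8 and 656.1 RPKM in Flt3+/+ and 195.4, 153.6, 259.4, 56 and 59.2 in Flt3 ITD/ITD replicates 1 to 5, with a log2 fold change of -1.97 (SE 0.47). The lowest Flt3+/+ value and the highest Flt3 ITD/ITD value of Npy were close. Dio2, the deiodinase that activates thyroid hormone, had a mean of 7.84 RPKM in Flt3+/+ and of 1.22 in Flt3 ITD/ITD libraries. Necab1, a calcium-binding protein, had means of 7.64 and 1 RPKM, with no Flt3 ITD/ITD library above 2.32 and no Flt3+/+ library below 5.23. Mapkap1, a subunit of an mTOR complex, had means of 9.74 and 2.11 RPKM, and 2610524H06Rik had means of 30.8 and 5.79. BC034252 had 0.27 to 3.95 RPKM in Flt3+/+ and at most 0.02 in Flt3 ITD/ITD libraries. The other 3 in this direction were Akr1c14, E130308A19Rik and Ccdc22.

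Among the genes above, Trf, which encodes the iron carrier transferrin, had 0.17, 9.61, 7.77, 0.32 and 4.82 RPKM in Flt3+/+ and 22.9, 130.1, 25.8, 558.2 and 48 in Flt3 ITD/ITD replicates 1 to 5. The mean of 157 RPKM was drawn up by Flt3 ITD/ITD replicate 4, and the log2 fold change of 5.23 (SE 1.33) was 3.69 without that library. Usp18, an interferon-induced protease that removes ISG15 from proteins and dampens interferon signalling, had 9.45, 20.9, 18.4, 11.3 and 15.5 RPKM in Flt3+/+ and 35, 27.8, 23.5, 61 and 49 in Flt3 ITD/ITD replicates 1 to 5. Its log2 fold change was 1.44 (SE 0.35), and 0.91 in the 7 libraries with Y-linked transcripts. Prdx6, a peroxiredoxin, had 45.9 to 67.1 RPKM in Flt3+/+ and 79.7 to 122.9 in Flt3 ITD/ITD libraries. Gosr2, a SNARE protein of the Golgi, had means of 5.91 and 17.0 RPKM, Naa35, a subunit of an N-terminal acetyltransferase, 9.18 and 28.5, and Cndp2, a cytosolic dipeptidase, 6.18 and 18.8. Scg3, a secretogranin, had 28.4 to 98.6 RPKM in Flt3+/+ and 111.9 to 198.7 in Flt3 ITD/ITD libraries. C1ra, a protease that starts the classical complement cascade, had 43.9 to 58.9 and 66.4 to 105.2 RPKM, respectively. Rpgr, a protein of the cilium, had at most 0.06 RPKM in Flt3+/+ MSCs and 0.24, 5.29, 5.79, 1.08 and 0.3 in Flt3 ITD/ITD replicates 1 to 5. The remaining gene, 2410127L17Rik, had means of 3.18 and 14.6 RPKM.

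**Figure D2:**
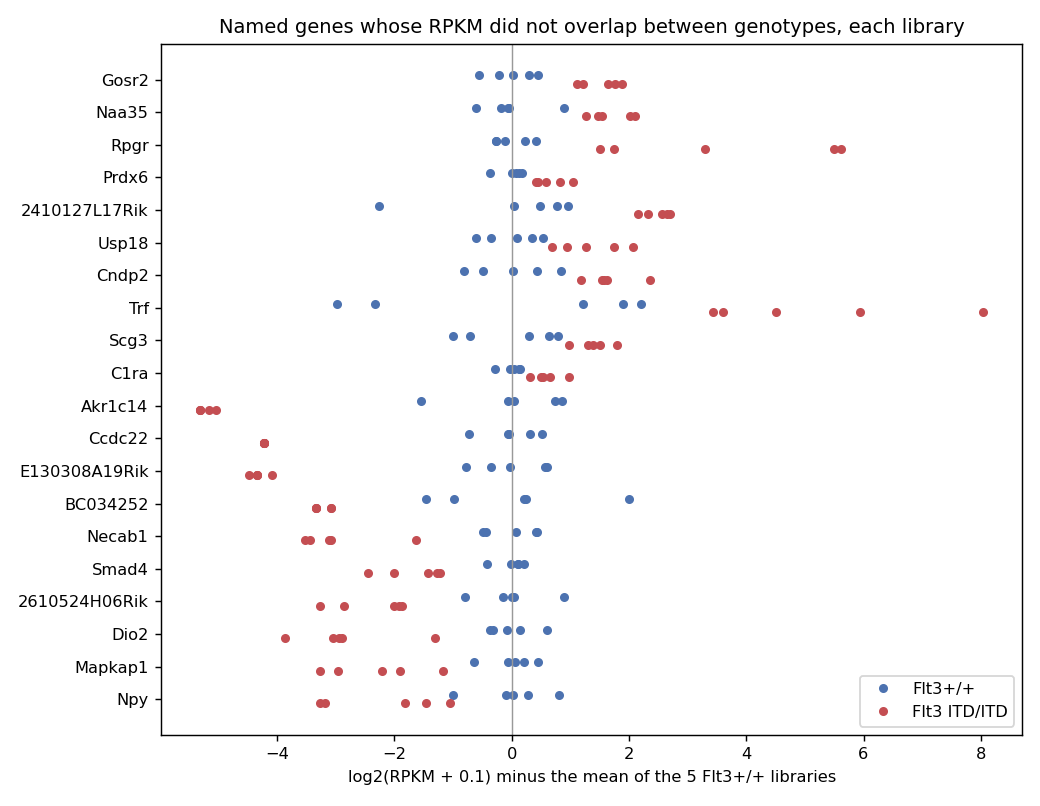
Each library's log2(RPKM + 0.1) minus the mean of the 5 Flt3+/+ libraries (horizontal axis), for the 10 genes named above Flt3+/+ and the 10 named below (vertical axis). Blue points are Flt3+/+ and red points Flt3 ITD/ITD libraries. The genes were selected for values that do not overlap, and Akr1c14 lies farthest below and Trf highest above.

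Genes were also grouped into lists by function. The lists were written with earlier results of these data known, so that their shares are described and are no independent test. Over all 13574 genes the median log2 fold change was 0.03, and 52.1% were higher in Flt3 ITD/ITD MSCs. The lists with the largest share of members at an unadjusted p-value below 0.05 were MHC class I and antigen processing, 9 of 28 higher, and collagens, 7 of 22 lower, that is 32.1% and 31.8% where the shares of all genes were 2.28% and 1.95%. Acute-phase genes (6 of 25 higher), complement (4 of 18), chemokines and interleukins (6 of 38) and hematopoietic stem cell (HSC) niche factors (3 of 27) followed. No member of these 6 lists passed adjustment over all genes in edgeR (smallest adjusted p = 0.999). By DESeq2, 4 acute-phase genes, 2 class I genes, 2 complement genes and no member of the other 3 lists had an adjusted p-value below 0.1, where 122 of 13418 genes (0.909%) had one. The acute-phase genes were Trf, Kng1, S100a9 and Hp, the class I genes H2-K1 and H2-Q6, and the complement genes C1ra and C1rb. Limits of S100a9, H2-Q6, C1ra and C1rb are given below. Members of a list are not independent of each other, and some genes are on more than 1 list.

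**Figure D3:**
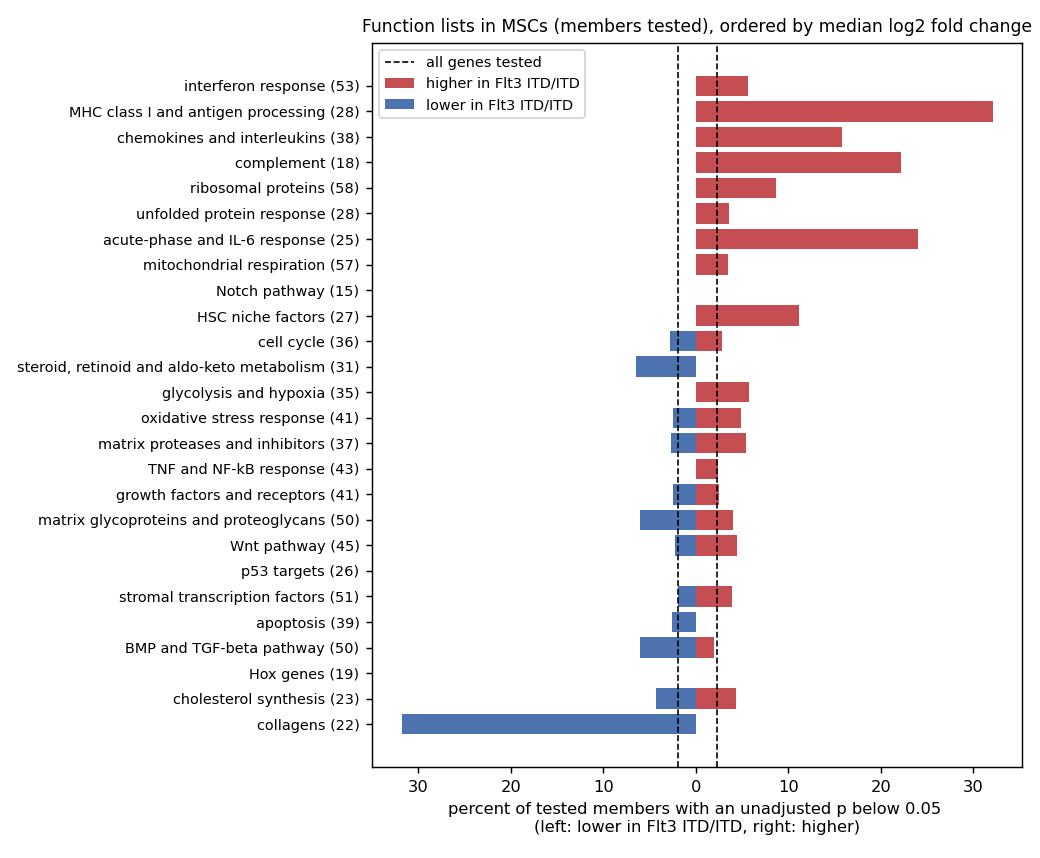
Percent of the tested members of each function list with an unadjusted p-value below 0.05, higher (red, right) or lower (blue, left) in Flt3 ITD/ITD MSCs. Lists (number of tested members in parentheses) are ordered by their median log2 fold change, and dashed lines mark the shares of all genes tested, 2.28% and 1.95%. The lists were written with earlier results of these data known.

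Of the 28 MHC class I and antigen processing genes tested, 22 had a higher level in the Flt3 ITD/ITD genotype, with a median log2 fold change of 0.51, and no member was lower at an unadjusted p-value below 0.05. B2m, the light chain shared by all class I molecules, had 1921, 1367, 1408, 1393 and 1268 RPKM in Flt3+/+ and 2025, 1747, 1718, 2876 and 2393 in Flt3 ITD/ITD replicates 1 to 5. Only Flt3+/+ replicate 1 lay within the range of the Flt3 ITD/ITD libraries. The log2 fold change was 0.61 (SE 0.19, unadjusted p = 0.00927). The class I heavy chain H2-K1 had 99.4, 143.6, 146.6, 137.3 and 130.6 RPKM in Flt3+/+ and 246.1, 181.9, 176.9, 161 and 155.6 in Flt3 ITD/ITD replicates 1 to 5, without overlap. The heavy chain H2-D1 had means of 508.7 (SD 108) and 733 (SD 175.9) RPKM, and Flt3+/+ replicates 2 and 5 lay above the lowest Flt3 ITD/ITD library. H2-T23, which presents signal peptides to natural killer cell receptors, had means of 96.4 and 129.9 RPKM, and H2-M3, which presents formylated peptides, 15.5 and 35.7. Psmb8, a catalytic subunit of the immunoproteasome, had means of 5.35 and 13.5 RPKM, and Tap1, a subunit of the peptide transporter, 0.192 and 1.53. H2-Q6 and H2-Q7 were the other 2 of the 9, and their levels are uncertain because these genes are near-identical and reads with several matches were discarded. The summed RPKM of the list was 3808, 3020, 2902, 3214 and 3220 in Flt3+/+ and 4720, 3927, 3658, 4970 and 4452 in Flt3 ITD/ITD replicates 1 to 5, with B2m as its most abundant member. The median of the list ranged from 0.37 to 0.56 over 22 alternative analyses.

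Of 53 interferon response genes tested, 43 had a higher level in the Flt3 ITD/ITD genotype, with a median log2 fold change of 0.51, but 3 had an unadjusted p-value below 0.05 (5.66%), Usp18, Psmb8 and Tap1, the last of which are also on the class I list. Irgm1, an interferon-induced GTPase, had 1.34 to 20.7 RPKM in Flt3+/+ and 12.2 to 50.4 in Flt3 ITD/ITD libraries, and Oasl2, a member of the oligoadenylate synthetase family, 0.45 to 13.8 and 4.55 to 83.9. The highest Oasl2 value was that of Flt3 ITD/ITD replicate 4. The median of the list was 0.26 without that library and 0.11 without Flt3 ITD/ITD replicates 4 and 5.

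Interferon-stimulated genes are often controlled by a short repeated element in the promoter. The motif GAAANNGAAA was searched on both strands in the window from 250 bases before to 50 bases after the start of each gene in RefSeq (GRCm38.p6). It was found in 5 of the 22 class I list members with a window (22.7%), in 21 of the 47 interferon response members (44.7%), in 6 of 44 ribosomal protein genes (13.6%) and in none of 18 collagen genes, where 3.99% of all 27025 genes had it. The windows of B2m and H2-T23 held 1 match each, shown in capitals and, for H2-T23, in reverse complement, and that of H2-D1 held none. B2m is at chr2:122147437-122147736 (plus strand), H2-T23 at chr17:36032652-36032951 (minus strand) and H2-D1 at chr17:35262844-35263143 (plus strand). They are shown as 2 members of the list with the motif and 1 without it, all with a higher mean in Flt3 ITD/ITD MSCs, and a match does not show that a factor binds there. Only exact matches were counted, so that a window without one, such as that of H2-D1, may still hold a variant of the element.
B2m: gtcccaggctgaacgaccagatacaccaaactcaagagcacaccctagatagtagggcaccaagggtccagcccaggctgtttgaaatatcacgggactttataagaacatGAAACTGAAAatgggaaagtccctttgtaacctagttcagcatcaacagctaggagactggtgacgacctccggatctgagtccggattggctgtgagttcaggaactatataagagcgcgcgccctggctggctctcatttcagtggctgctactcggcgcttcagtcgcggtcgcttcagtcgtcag
H2-T23: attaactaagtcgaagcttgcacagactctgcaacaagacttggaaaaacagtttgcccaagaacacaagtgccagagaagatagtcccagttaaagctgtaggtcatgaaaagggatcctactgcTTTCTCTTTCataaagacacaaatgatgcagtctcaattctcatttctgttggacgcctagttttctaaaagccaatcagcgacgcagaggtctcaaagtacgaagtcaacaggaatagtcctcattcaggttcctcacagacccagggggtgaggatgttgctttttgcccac
H2-D1: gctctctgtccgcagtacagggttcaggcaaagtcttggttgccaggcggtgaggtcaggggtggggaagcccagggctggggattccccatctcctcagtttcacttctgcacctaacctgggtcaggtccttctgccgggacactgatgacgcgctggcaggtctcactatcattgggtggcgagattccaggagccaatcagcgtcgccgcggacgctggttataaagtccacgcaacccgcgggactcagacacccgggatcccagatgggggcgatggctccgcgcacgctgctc

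Of the 22 collagen genes tested, 18 were lower in Flt3 ITD/ITD MSCs, with a median log2 fold change of -0.40. Col3a1, the fibrillar collagen of soft connective tissue, had 936.8, 781.9, 680.3, 712.4 and 685.6 RPKM in Flt3+/+ and 297.3, 423, 500.7, 553 and 560.6 in Flt3 ITD/ITD replicates 1 to 5. The groups did not overlap, and the log2 fold change was -0.65 (SE 0.19, unadjusted p = 0.00488). Col5a2, a chain of a collagen that starts fibrils, had 102.2 to 126.0 RPKM in Flt3+/+ and 68.6 to 99 in Flt3 ITD/ITD libraries, also without overlap. The other 5 members at an unadjusted p-value below 0.05 were Col5a1, the chains of the beaded-filament collagen Col6a1 and Col6a2, the basement membrane collagen Col4a2 and Col8a1. Col6a1 had means of 277.2 and 198.2 RPKM, Col6a2 114.6 and 75.8, and Col8a1 28.1 and 10.9. Col1a1, the main collagen of bone, had means of 393.8 and 266.5 RPKM (unadjusted p = 0.0575). The summed RPKM of collagens was 3245, 3133, 2488, 2564 and 2450 in Flt3+/+ and 1779, 1626, 1702, 2788 and 1938 in Flt3 ITD/ITD replicates 1 to 5, so that Flt3 ITD/ITD replicate 4 alone lay within the Flt3+/+ range. Without Flt3 ITD/ITD replicates 3 and 5 the median log2 fold change of the list was -0.13, and 14 of 22 members were lower.

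The 50 matrix glycoproteins and proteoglycans tested had no common direction, with 24 higher and 26 lower. Omd, the bone proteoglycan osteomodulin, had 727.3, 238.6, 609.8, 353.9 and 553.4 RPKM in Flt3+/+ and 355.5, 96.5, 158.2, 79.1 and 142.8 in Flt3 ITD/ITD replicates 1 to 5 (log2 fold change -1.54, SE 0.42, unadjusted p = 0.00388). Plod2, which hydroxylates collagen, had means of 52.3 and 29.8 RPKM. The elastic fiber proteins Efemp1 and Fbln5 had higher means in Flt3 ITD/ITD MSCs, 149 and 236.7 RPKM and 24.1 and 51 RPKM. Of matrix proteases and inhibitors, Ctsb had means of 290.5 and 373.1 RPKM and Mmp19 10.9 and 3.13.

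Of the 27 HSC niche factors tested, 16 were higher and 11 lower. Cxcl12 had 144, 263, 259, 362.8 and 85.2 RPKM in Flt3+/+ and 474.6, 412.6, 163.3, 981.2 and 767 in Flt3 ITD/ITD replicates 1 to 5. Flt3 ITD/ITD replicate 3 lay among the Flt3+/+ libraries and the other 4 lay above all of them (log2 fold change 1.42, SE 0.52, unadjusted p = 0.0191). Without Flt3 ITD/ITD replicate 4 the log2 fold change was 0.99. Angpt1, a ligand of the Tie2 receptor, had means of 4.51 and 11.6 RPKM, and Vcam1, the adhesion molecule that binds blood cell integrins, 24.3 (SD 15.6) and 53.6 (SD 31.6). Kitl had 17.0, 27.6, 0.9, 28.2 and 4.03 RPKM in Flt3+/+ and 7.76, 16.8, 5.9, 37.6 and 21.8 in Flt3 ITD/ITD replicates 1 to 5, which did not separate the genotypes (log2 fold change 0.29, SE 0.79). In ECs the means of Kitl were higher than in MSCs, 181.2 RPKM in Flt3+/+ and 223.1 in Flt3 ITD/ITD libraries. Thpo, which encodes thrombopoietin, had at most 3.04 RPKM in Flt3+/+ MSCs and 7.24 in Flt3 ITD/ITD MSCs.

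**Figure D4:**
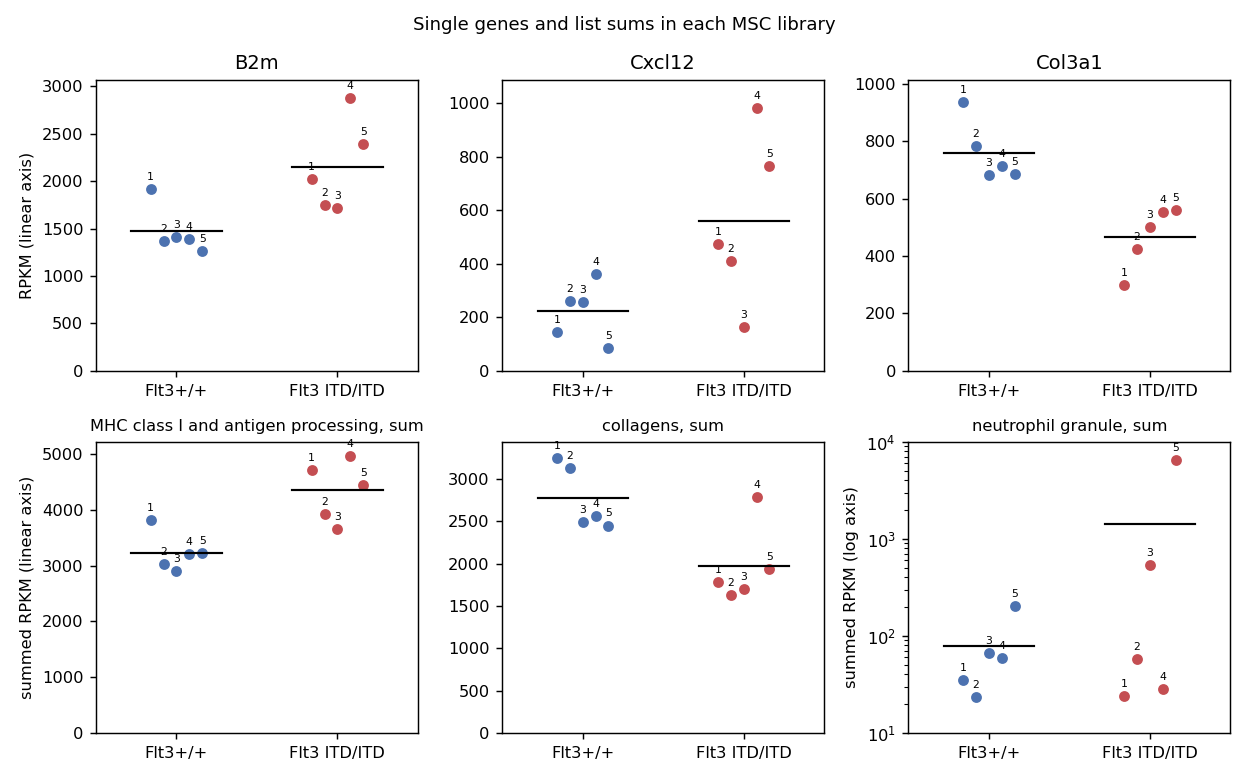
RPKM of B2m, Cxcl12 and Col3a1 (top, linear axes) and summed RPKM of the class I list, the collagens (linear axes) and 13 neutrophil granule genes (log axis) in each MSC library. Points are libraries numbered by replicate and horizontal lines are means of 5. The neutrophil sum reaches 6482 in Flt3 ITD/ITD replicate 5 and is below 210 in all Flt3+/+ libraries.

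Of 38 chemokines and interleukins tested, 30 were higher in Flt3 ITD/ITD MSCs, with a median log2 fold change of 0.42. Cxcl13, which attracts B cells, had 8.34, 0, 0, 5.54 and 0 RPKM in Flt3+/+ and 227.8, 33.3, 8.7, 41.2 and 10.7 in Flt3 ITD/ITD replicates 1 to 5. Its values did not overlap, although the closest libraries were 8.34 and 8.7 RPKM. Ccl19, a ligand of the receptor Ccr7, had means of 60.9 and 173.2 RPKM and Il18, a cytokine that induces interferon gamma, 14.1 and 33.1. Il10rb, a receptor chain for interleukin 10 and other cytokines, had means of 11.5 and 22.7 RPKM. Cxcl12, described above with the niche factors, and Il1rn, described below with the acute-phase genes, also had an unadjusted p-value below 0.05. Il6 had 26.4 to 202.5 RPKM in Flt3+/+ and 9.58 to 304.4 in Flt3 ITD/ITD libraries. Tnf was listed at 0 in 8 of the 10 libraries and did not exceed 0.55 RPKM. Of 43 genes of the TNF and NF-kB response tested, 26 were higher, and Vcam1 alone had an unadjusted p-value below 0.05.

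Of 18 complement genes tested, 14 had a higher level in the Flt3 ITD/ITD genotype, with a median log2 fold change of 0.40. C1ra, described above, and C1rb, with means of 13.7 and 23.8 RPKM, did not overlap, but they are near-identical copies and cannot be separated with certainty. Serping1, the inhibitor of the C1 proteases, had 1207 to 1735 RPKM in Flt3+/+ and 1424 to 2213 in Flt3 ITD/ITD libraries. Colec12, a scavenger receptor, had means of 76.8 and 99.3 RPKM.

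Of the 25 acute-phase and IL-6 response genes tested, 17 had a higher level in the Flt3 ITD/ITD genotype, and 6 had an unadjusted p-value below 0.05, Trf, S100a8, S100a9, Il1rn, Hp and Kng1. S100a8, which encodes a calcium-binding protein of neutrophils, had 6.94, 14.0, 12.0, 0.09 and 14.5 RPKM in Flt3+/+ and 13, 5.46, 295.3, 27.2 and 3585 in Flt3 ITD/ITD replicates 1 to 5. Its partner S100a9 had at most 5.26 RPKM in Flt3+/+ and 0, 5.14, 152.3, 0.15 and 962.7 in Flt3 ITD/ITD replicates 1 to 5. The summed RPKM of all 13 neutrophil granule markers was 534.6 and 6482 in Flt3 ITD/ITD replicates 3 and 5 and 23.3 to 203.6 in the other 8 libraries, and that of 10 pan-leukocyte markers was 255.4 in Flt3 ITD/ITD replicate 5, 123 in Flt3+/+ replicate 5 and at most 40.1 elsewhere. Without Flt3 ITD/ITD replicates 3 and 5 the log2 fold change of S100a8 was 0.81 instead of 6.34, that of S100a9 was -0.22 instead of 6.70, and the median of the 4 neutrophil markers tested was -0.31 instead of 6.16. Of the 9 neutrophil markers with too few counts to be tested, Mpo, Elane, Prtn3 and Ctsg, which encode enzymes of the primary granules, had lower means in Flt3 ITD/ITD MSCs and were highest in Flt3+/+ replicate 5. Mpo had means of 4.39 and 0.002 RPKM, Elane 2.65 and 0, Prtn3 4.1 and 0.948 and Ctsg 3.46 and 1.14. The other 5 had higher means in Flt3 ITD/ITD MSCs and were highest in Flt3 ITD/ITD replicate 5, such as Camp with means of 1.48 and 62.9 RPKM. Il1rn, the interleukin 1 receptor antagonist, had 11.2 RPKM in Flt3 ITD/ITD replicate 5 and at most 0.71 in any other library. In contrast, Hp, which encodes haptoglobin, was highest in Flt3 ITD/ITD replicates 2 and 4, with 168.3 and 131 RPKM, against 13.9 in replicate 5, and Kng1, which encodes kininogen, reached 71.8 RPKM in replicate 4. Cd74, the invariant chain of MHC class II, had 28.4 RPKM in Flt3 ITD/ITD replicate 4 and 2.2 in replicate 5, was listed at 0 in all Flt3+/+ MSCs, and no class II gene had enough counts to be tested.

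Markers of the other lineages in or near the gate were also measured. Of 10 smooth muscle and pericyte markers 8 were tested, and all 8 had a higher level in Flt3 ITD/ITD MSCs, with no unadjusted p-value below 0.05, and their summed RPKM overlapped, 21.5 to 163.2 in Flt3+/+ and 52.9 to 171.6 in Flt3 ITD/ITD libraries. Of 10 adipogenic and leptin receptor markers 4 had enough counts to be tested, and these 4 had a higher level in the Flt3 ITD/ITD genotype, 2 of them at an unadjusted p-value below 0.05, Lpl and Apoe. The untested markers had no common direction, and Pparg, the transcription factor of fat cell formation, had means of 3.46 and 0.176 RPKM, Fabp4, a fatty acid carrier, 2.65 and 0.012, and Adipoq, which encodes adiponectin, 3.74 and 40.6. Lpl, the lipase that releases fatty acids from lipoproteins, had means of 29.9 and 56.3 RPKM, and Apoe, a lipid carrier, had 970.9 RPKM in Flt3 ITD/ITD replicate 1 and 58.8 to 275.2 in the other 9 libraries. The summed RPKM of the list was 1115 in that library, 278.4 to 502 in the other Flt3 ITD/ITD and 129 to 383.5 in the Flt3+/+ libraries. Of 10 osteoblast markers 5 were tested, of which 4 had a lower level, and the sum of the list was 1829 to 3562 RPKM in Flt3+/+ and 187 to 2859 in Flt3 ITD/ITD libraries. Ibsp, the bone sialoprotein, had means of 1913 (SD 705.8) and 1047 (SD 1083) RPKM. Of 9 chondrocyte markers tested 7 had a lower level, with sums of 2172 to 8493 RPKM in Flt3+/+ and 1376 to 5761 in Flt3 ITD/ITD libraries. Col2a1, a collagen of cartilage, had means of 25.8 and 3.62 RPKM (unadjusted p = 0.0287). Tendon and ligament markers, 5 of 8 lower, summed to 1395 to 2217 RPKM in Flt3+/+ libraries. Their sums were 1834, 963.5, 739.4, 4163 and 767.3 in Flt3 ITD/ITD replicates 1 to 5. Whether collagen levels follow these sums was not tested. Fewer cells of a type and less RNA per cell cannot be told apart in such pools. Thy1, a surface antigen of stromal cells, had 22.6, 28.2, 12.9, 13.1 and 25.3 RPKM in Flt3+/+ and 5.02, 5.1, 8.29, 12.9 and 12.8 in Flt3 ITD/ITD replicates 1 to 5, without overlap (unadjusted p = 0.0179), although the closest libraries were 12.90 and 12.87 RPKM. Erythroid markers summed to at most 28.5 RPKM and endothelial markers to at most 24.5, where MSC markers summed to 29830 to 35210.

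Among signalling pathways, Dkk2, a secreted Wnt regulator, had 5.31 to 11.3 RPKM in Flt3+/+ and 9.34 to 23.4 in Flt3 ITD/ITD libraries (log2 fold change 1.36, SE 0.33, unadjusted p = 0.00157), and Tcf7l2, a transcription factor of the Wnt pathway, had means of 40.4 and 58 RPKM. Sfrp4, which binds Wnt proteins, had means of 768.1 and 367.3 RPKM. Of 45 Wnt pathway genes tested 21 were higher, and of 50 BMP and TGF-beta genes 22 were higher. Smad9, a SMAD protein of the BMP pathway, had means of 1.57 and 0.282 RPKM, and Fst, the activin antagonist follistatin, 14.8 and 36.9. Cyr61, a matricellular growth regulator, had means of 101.2 and 167.8 RPKM. Of the 58 ribosomal protein genes tested, 54 had a higher level in the Flt3 ITD/ITD genotype by small amounts, with a median log2 fold change of 0.18 and 5 at an unadjusted p-value below 0.05. Rpl35 had 1477 to 1611 RPKM in Flt3+/+ and 1750 to 2102 in Flt3 ITD/ITD libraries. Ebf1, a transcription factor of marrow stroma, had means of 60.5 and 102 RPKM. Cdk4, a kinase of the cell cycle, had means of 25.3 and 55.2 RPKM, and Ddit3, a transcription factor of the unfolded protein response, 53.9 and 93.7. Hox genes, p53 targets and Notch pathway genes had no member at an unadjusted p-value below 0.05 among 19, 26 and 15 tested.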

How the data were processed

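RNA was measured in MSCs, ECs and MNCs of Flt3+/+ and Flt3 ITD/ITD mice, and 10 MSC libraries, 5 per genotype, were analyzed, with 10 EC and 8 MNC libraries for comparison. Groups and replicate numbers were taken from the labels. The authors deposited estimated counts (whole numbers made by RSEM, not normalized), after 51-base single-end reads had been aligned to mm10 transcripts with Bowtie and reads with several matches had been discarded. The authors also deposited RPKM for the same genes, to 2 decimals. Versions of these tools are not given in the sources used here. Libraries came from 100 cells (MNCs 200) with 15 cycles of PCR, and without molecular identifiers amplified reads are not separate molecules, so that floors cover counting error alone. Depth was 10674182 to 33714502 counts per MSC library, with a floor set at 3 counts.

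The main test was edgeR 4.0.16's quasi-likelihood test in R 4.3.3 on the counts, with TMM factors and filterByExpr, which left 13574 of 25251 genes. Genes were called at a Benjamini-Hochberg adjusted p-value below 0.1 where the mean RPKM also differed by at least 1 on the log2 scale. These are the thresholds of the study's methods, which however accept a gene from DESeq2 as well as from edgeR. The 4 genes called here were among the 197 of DESeq2. Fold changes are Flt3 ITD/ITD over Flt3+/+. Interaction terms compared the genotype effect between populations. For mean RPKM, two-sided exact permutation tests ran over all 252 divisions of the libraries. DESeq2 1.42.0, edgeR's exact test, limma 3.58.1 (voom with quality weights), other size factors and filters, covariates, a replicate block and leaving out libraries were alternatives. The scripts were tested on simulated data. No 2 libraries were duplicates, with at most 0.257% of genes equal in counts above 10.

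The MSCs and the gene lists were chosen with earlier results of these data known. Named genes were those of the sort gate and markers, called genes, the 10 in each direction without overlap, a mean of at least 1 RPKM and the smallest p, 13 genes of interest to the study, and the 2 higher and 2 lower members of each list with the smallest p. Other genes named in the lists with an unadjusted p-value below 0.05, Irgm1, Oasl2, Col1a1, Ibsp and Col5a2, and the neutrophil and adipogenic markers that were not tested, were chosen after their values were seen. Some genes that these rules would name are not reported here. Positions are from GENCODE M21 (GRCm38), the build of the files, and promoters from RefSeq. Usp18 had no promoter entry.

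Same-numbered libraries of the genotypes were not treated as pairs, since nothing in the labels says that a number marks a shared litter or day. Their deviations from the genotype means had low correlations, 0.03 to 0.0618. Flt3+/+ replicates 2, 3, 4 and 5 nonetheless correlated best with the Flt3 ITD/ITD library of their own number, so that the data do not settle the point. A replicate block was fitted as an alternative.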

Additional observations from a re-analysis of the deposited data

Results flagged for a closer look

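In 76 sets of 5 libraries of 1 genotype (totals, genes detected, marker sums and single genes), 24 had an outlying library. In each, the gap from the highest or lowest library to its neighbor was over 0.71 of the range. About 1 in 20 sets would do so by chance if values were normally distributed, which RPKM near the floor are not. Where a single library had any count, as for Tnf in each genotype and Pecam1 in Flt3+/+ MSCs, the gap is the whole range whatever the value. The 24 sets are therefore not shown to exceed chance. The sets share genes and libraries. Flt3+/+ replicate 1 had the lowest total of its genotype, 12300624 counts, and 15235 genes detected, and Flt3 ITD/ITD replicate 4 had 14881 genes detected. Erythroid markers summed to 28.5 RPKM in Flt3+/+ replicate 1 and to 24.7 in Flt3 ITD/ITD replicate 4, which also had the highest Trf (558.2 RPKM) and Cd74 (28.4 RPKM).

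Within each genotype, replicate 5 had the highest leukocyte markers. Pan-leukocyte markers summed to 123 RPKM in Flt3+/+ and 255.4 in Flt3 ITD/ITD replicate 5, and neutrophil granule markers to 203.6 and 6482. Among the Flt3 ITD/ITD libraries, replicate 5 also had the highest S100a8 (3585 RPKM), S100a9 (962.7), Il1rn (11.2), Ptprc (0.53), Pecam1 (1.93) and Tnf (0.52). Replicate 1 had, among the same libraries, the highest sums of adipogenic and leptin receptor markers (1115 RPKM) and Schwann cell markers (57.2), the highest Alcam (3.94 RPKM) and the lowest Ly6a (1687 RPKM). In Flt3+/+ MSCs, Hp was highest in replicate 3 (24.5 RPKM), Tnf in replicate 2 (0.55) and Pecam1 in replicate 4 (0.06).

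The effect of genotype differed between populations by the interaction test of edgeR for 7 genes. Against ECs, the log2 effect in MSCs was lower for Akr1c14 (-9.44, adjusted p = 0.00227). Against MNCs it was lower for Ccdc22 (-9.78, adjusted p = 0.00014), Foxp3 (-8.88, adjusted p = 0.0021), Socs2 (-3.67, adjusted p = 0.00278), E130308A19Rik (-7.34), Bbs10 (-11.79) and 2610524H06Rik (-3.39), the last 3 at an adjusted p of 0.0825.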

How the results depend on the processing

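The number of called genes, 4 in the main analysis, was 20 with edgeR's exact test, 197 with DESeq2 and 18 when all 28 libraries were fitted together. It was 2 without a filter on low counts, with at least 50 counts in 5 libraries, with a pan-leukocyte score as covariate, with Y-linked transcripts as covariate and at an adjusted p-value below 0.05. It was 0 with a replicate block, without Flt3 ITD/ITD replicates 4 and 5, without Flt3 ITD/ITD replicates 3 and 5 and in the 7 libraries with Y-linked transcripts, and 0 to 2 when 1 library was left out. These fits have fewer samples or fewer residual degrees of freedom, and otherwise the cause was not tested. The alternatives that use Y-linked transcripts or leave out replicates 3 and 5 were chosen after seeing the data. Of same-numbered libraries, 4 of the 5 Flt3+/+ ones correlated best with their own number, a hint from the data and not from the design. The genes with a different genotype effect in MSCs and ECs, 1 in the main analysis, were 6 with a replicate block, 459 with DESeq2 and 1 to 2 without 1 library. Those for MSCs and MNCs, 6 in the main analysis, were 3 without a filter, 22 with a replicate block, 338 with DESeq2 and 3 to 14 without 1 library. Kitl changed direction, with log2 fold changes of -0.24 with genes detected as covariate, -0.60 without Flt3 ITD/ITD replicates 4 and 5 and -0.26 to 0.62 without 1 library. Il6 was -0.28 with Y-linked transcripts as covariate and S100a9 -0.22 without Flt3 ITD/ITD replicates 3 and 5. No other named gene that was tested this way changed direction. With 100 cells per library and a biological coefficient of variation of 0.871, small differences in genes of low expression could not be detected. Larger differences in well-expressed genes were not called either. Smad4 had genotype means of 29.2 (Flt3+/+) and 9.47 RPKM without overlap, at an adjusted p-value of 0.322 in edgeR's quasi-likelihood test. For Npy, also without overlap, the means were 584.2 and 144.7 RPKM and the adjusted p-value was 0.999. A gene that was not called is therefore not shown to be equal between genotypes.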

Other observations

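Several metabolic and other genes not described above had values that separated most libraries of the genotypes. Adm, which encodes the vasodilator peptide adrenomedullin, had 16.9, 77.5, 49.8, 59.9 and 46.5 RPKM in Flt3+/+ and 178.9, 111.1, 96.5, 70.7 and 122.6 in Flt3 ITD/ITD replicates 1 to 5 (log2 fold change 1.26, SE 0.36, unadjusted p = 0.00506). Pmvk, an enzyme of cholesterol synthesis, had means of 13.1 RPKM in Flt3+/+ and 27.6 RPKM in Flt3 ITD/ITD MSCs. Srxn1, which reduces oxidized peroxiredoxins, had 7.94 to 18.6 RPKM in Flt3+/+ and 2.2 to 7.75 in Flt3 ITD/ITD MSCs, without overlap, and was thus on the other side from Prdx6. Tradd, an adaptor of TNF receptors, had 5.75 to 15.7 and 0.32 to 5.2 RPKM, also without overlap. Crabp2, a retinoic acid carrier, had means of 41.1 and 16.7 RPKM. None of these genes passed adjustment over all genes in edgeR, and by DESeq2 only Adm did (adjusted p = 0.0726).

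Met, the receptor of hepatocyte growth factor, had 0.1 to 3.26 RPKM in Flt3+/+ and at most 0.38 in Flt3 ITD/ITD MSCs, and Top2a, a topoisomerase of dividing cells, did not exceed 1.17 RPKM in any library. Uqcrc2, a subunit of the mitochondrial respiratory chain, had 40.8 to 69.5 RPKM in Flt3+/+ and 70.8 to 102 in Flt3 ITD/ITD MSCs, and 38 of 57 respiratory genes tested were higher, with a median log2 fold change of 0.14.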
